A study of Bombyx mori with 4 samples.

Results

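Open chromatin was examined on the unplaced sequences of the silkworm (Bombyx mori) assembly, the short pieces that stand outside its 28 long sequences. Members were all peaks of the 4 deposited ATAC-seq lists on a sequence whose deposited name, such as BHWX01000029.1, carries a number of 29 or more. They are called sequence 29 and so on here. They numbered 1035 of 169801 peaks, or 0.610%, and lay on 180 sequences numbered from 29 to 692. The choice used the name alone and no measured value. ATAC-seq cuts and tags accessible DNA with a transposase. Here the nuclei came from brain and from fat body, the insect organ that stores nutrients and secretes most haemolymph proteins, with 2 libraries per tissue. All larvae were wild type, of strain P50, reared on mulberry leaves, and labelled with the stage code L5D3. The labels give neither the sex of the larvae nor how many were pooled, and do not say whether libraries with the same number shared animals or a day. In brain 1 the deposited peaks are named with 5L-4D and not with the code of its label, which touches every value of that library.

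Sequences stay unplaced in an assembly when they cannot be ordered along a chromosome, most often because they consist of repeats: transposable elements, satellites or ribosomal RNA gene arrays. Reads from several copies of a repeat can gather on 1 assembled copy, while reads that match many copies equally well are removed where a mapping quality is required. Open chromatin on such sequences can still mark ordinary promoters and enhancers of genes that happen to lie there. Peak callers such as MACS2 set the reads at a summit against the larger of a genome-wide and a local background. No genome or gene models of the build of these lists were used, so neither genes nor DNA letters are given, and the name of the build is not given in the sources used here. Coordinates are 1-based and follow the deposited lists.

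The unplaced sequences were short. The largest end of a peak on a sequence, called its reach, is a lower bound of its length. It ran from 0.363 to 288 kb with a median of 14.9 kb and summed to 5.09 Mb, against 8.36 to 21.5 Mb per long sequence and 445 Mb in all. Reach fell with the number of the sequence (Spearman's rho -0.76 across the 180 sequences, a description over sequences that share an assembly). At the edge of the rule, sequence 28 reached 10.6 Mb and held 851 peaks of brain 1, 2828 of fat body 1, 396 of brain 2 and 520 of fat body 2. Sequence 29 reached 0.288 Mb and held 20, 71, 6 and 12 peaks in the same order. The whole lists, again in that order, held 36420, 107057, 11572 and 14752 peaks. Sequences without a peak in any list do not appear in these files.

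The unplaced share of a peak list was set apart by the library number and hardly by the tissue. In brain 1, 124 peaks or 0.340% of the list were unplaced (exact 95% binomial interval 0.283 to 0.406), and in fat body 1 it was 432 peaks or 0.404% (0.366 to 0.443). In brain 2 it was 196 peaks or 1.69% (1.47 to 1.95), and in fat body 2 it was 283 peaks or 1.92% (1.70 to 2.15). Library 2 thus exceeded library 1 by 4.97 times in brain and by 4.75 times in fat body. Within a number, fat body lay above brain by 0.0631 percentage points in the libraries numbered 1 and by 0.225 in those numbered 2. The tissue means were 1.02% ± 0.957 in brain and 1.16% ± 1.07 in fat body (SD, n = 2 libraries each). Their difference of 0.144 percentage points was smaller than either SD (exact permutation test over libraries, two-sided, p = 0.667, where 0.333 is the smallest p possible). It turned to -0.533 without brain 1 and to -0.614 without fat body 2. Intervals cover counting over peaks only, which are not replicates.

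The gap between the numbered libraries widened along the sequence numbers in both tissues. On sequence 28, which is long, the share of the list in library 2 was 1.46 times that in library 1 for brain and 1.33 times for fat body. This is 1 sequence and does not stand for all long ones. Sequences 1 to 28 together held 99.7% of the list in brain 1 and 98.3% in brain 2, and 99.6% in fat body 1 and 98.1% in fat body 2. On sequence 29 the ratios of library 2 to library 1 were 0.944 and 1.23. The intervals of all 4 libraries overlapped there, but brain 2 held only 6 peaks and fat body 2 only 12, so the overlap does not show equal shares. On sequences 30 to 99 the ratios were 3.80 and 3.34. On sequences 100 to 299 they rose to 12.9 and 14.7, and on sequences 300 to 692 to 22.7 and 19.0. Between the tissues within a number, the ratios of fat body to brain stayed from 1.04 to 1.57 over all 4 groups of unplaced sequences. The groups of numbers were drawn after the lists were seen, and no test over libraries was made of the trend.

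**Figure D1:**
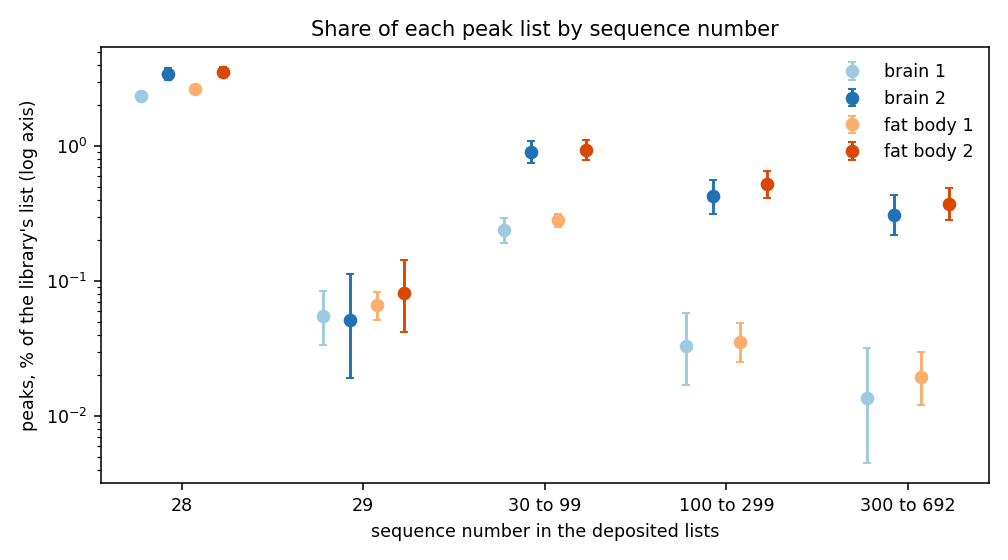
Peaks on sequence 28 and on 4 groups of unplaced sequences as a percentage of each library's list (log axis), with points for the libraries and exact 95% binomial bars. The bars of the 4 libraries overlap on sequence 29, where brain 2 has only 6 peaks and fat body 2 only 12. On sequences 300 to 692 brain 2 at 0.311% and fat body 2 at 0.373% lie far above brain 1 at 0.0137% and fat body 1 at 0.0196%.

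Counted in peaks, the same split was visible on the shortest sequences despite the shorter lists of the libraries numbered 2. Sequences 300 to 692 held 5 peaks of brain 1 and 21 of fat body 1, against 36 of brain 2 and 55 of fat body 2. Sequences 100 to 299 held 12 and 38 peaks of the libraries numbered 1, against 49 and 77 of those numbered 2. On sequences 30 to 99 the order depended on tissue, with 87 peaks in brain 1 and 105 in brain 2, but 302 in fat body 1 and 139 in fat body 2. Over all unplaced sequences the peaks per Mb of reach were 24.4 in brain 1 and 84.9 in fat body 1, which was 0.298 and 0.354 times the density on long sequences. They were 38.5 in brain 2 and 55.6 in fat body 2, or 1.51 and 1.71 times the density on long sequences. Reach is a lower bound of length and was taken over all 4 lists, so each unplaced density is an upper bound for the sequences counted. Unplaced peaks covered 67.5 kb and 103 kb in the brain and fat body libraries numbered 1, and 116 kb and 211 kb in those numbered 2.

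Peaks stood on few of the sequences in the libraries numbered 1 and on many in those numbered 2. Brain 1 had peaks on 43 unplaced sequences and fat body 1 on 69, whereas brain 2 had them on 107 and fat body 2 on 138. The number of peaks per sequence with a peak was 2.88 on average in brain 1 (median 1, highest 20) and 6.26 in fat body 1 (median 3, highest 71). It was 1.83 in brain 2 (median 1, highest 7) and 2.05 in fat body 2 (median 1, highest 13). A single peak was found on 31.9% of the sequences with peaks in fat body 1 and on 58.1% to 62.6% of those of the other lists. In the libraries numbered 1 the peaks were concentrated: the 5 richest sequences held 46.0% of the unplaced peaks of brain 1 and 39.8% of those of fat body 1, where brain 2 had 16.8% and fat body 2 had 19.1% on its own 5 richest. Over the 4 lists together, 24 sequences with at least 10 peaks held 605 peaks, or 58.5% of all unplaced peaks, and 46 sequences held 1 peak in all.

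Few unplaced sequences were open in 1 tissue alone when both of its libraries were required. No sequence carried peaks of both brain libraries without any of fat body. Only 2 carried peaks of both fat body libraries without any of brain. These were sequence 63, with 9 peaks in fat body 1 and 2 in fat body 2 over a reach of 34.3 kb, and sequence 60, with 2 peaks in each over 52.9 kb. On sequence 60 all 4 merged regions stood in 1 list only, so the fat body libraries shared no region there. On sequence 63 this held for 6 of 8 regions. When a peak in at least 1 library of a tissue sufficed, 9 sequences had peaks in brain only and 56 in fat body only. Within each number the fat body list was the longer. Of these, the 9 of brain held 10 peaks in all, and 54 of the 56 stood in a single list. Peaks in both tissues were found on 115 sequences, or 63.9%, with 89.0% of the unplaced peaks.

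Sequences set apart by library number were more frequent. Peaks in both libraries numbered 2 and in neither numbered 1 were found on 64 sequences, 35.6% of the 180, with 222 peaks and a median reach of 13.2 kb. The converse class, brain 1 and fat body 1 alone, had 8 sequences with 52 peaks. In at least 1 library of a number, 34 sequences had peaks under number 1 only and 45 under both numbers, and the others under number 2 only. Median reach was 27.7 kb for the 45 shared ones, 11.4 kb for number 1 only and 12.6 kb for number 2 only. Reach is set by the outermost peak of any list, so sequences with more peaks have a longer reach partly by construction. A single list held 63 sequences, of which 34 stood in fat body 2, 20 in fat body 1, 6 in brain 1 and 3 in brain 2. All 4 lists shared 19 sequences, which had a median reach of 89.4 kb and held 517 of the 1035 peaks.

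**Figure D2:**
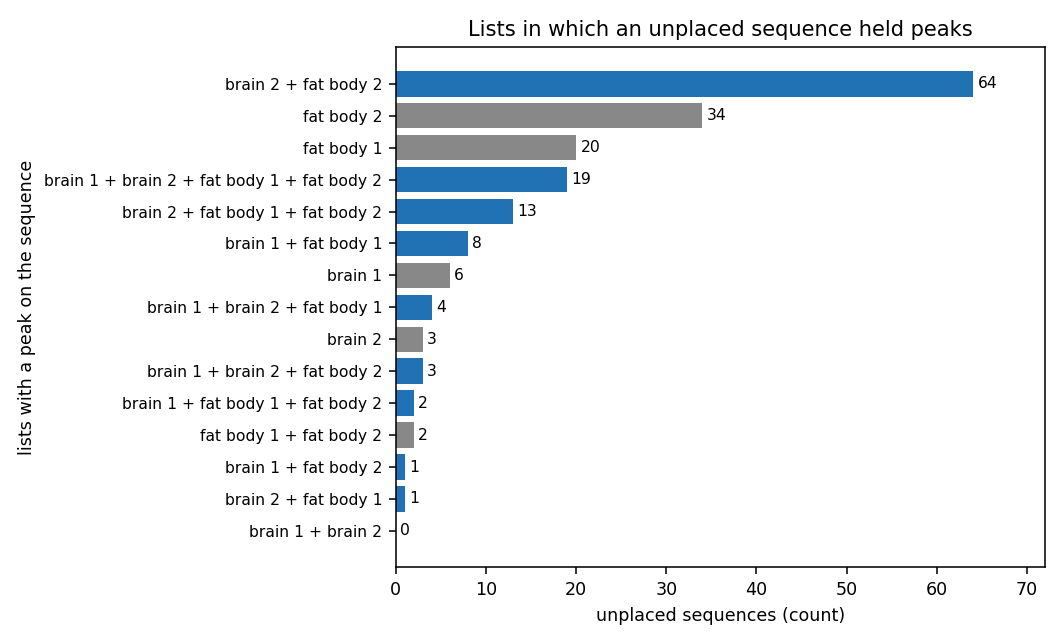
Number of unplaced sequences (x axis) with a peak in exactly the lists named on the y axis. Blue bars join both tissues and grey bars belong to 1 tissue. Brain 2 with fat body 2 is the most frequent combination at 64 sequences, and the brain lists alone share 0.

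Pair by pair, brain 2 and fat body 2 had 99 sequences in common, 92.5% of those of brain 2 and 71.7% of those of fat body 2. Brain 1 and fat body 1 had 33 in common, 76.7% of those of brain 1 and 47.8% of those of fat body 1. The brain libraries had 26 in common, 60.5% of brain 1 and 24.3% of brain 2. The fat body libraries had 36 in common, 52.2% of fat body 1 and 26.1% of fat body 2. The unequal number of sequences per list limits these shares. Of all 180 sequences, brain 1 held 43, fat body 1 held 69, brain 2 held 107 and fat body 2 held 138. Against these parts of the 180, the shares in common were near for the brain pair and lower for the fat body pair. They were higher for both pairs of the same number.

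The 5 sequences with the most merged regions were among the longest. Merging joined peaks of the 4 lists that overlapped by at least 1 bp and gave 747 unplaced regions. Sequence 29 had 86 regions, sequence 34 had 44, sequence 38 had 40, sequence 39 had 26 and sequence 43 had 25. On sequence 34 there were 9 peaks of brain 1, 28 of fat body 1, 7 of brain 2 and 13 of fat body 2. The fat body to brain order within each number is that of the whole lists, which were longer in fat body. On sequence 38 the same counts were 8, 34, 5 and 4, and on sequence 39 they were 6, 15, 6 and 11. Sequence 43 had 12 and 20 peaks in the brain and fat body libraries numbered 1, and 3 and 1 in those numbered 2. Regions seen in 1 list only were about as frequent there as among all regions, of which they made up 77.9%: 68 of 86 on sequence 29, 33 of 44 on sequence 34, 34 of 40 on sequence 38, 19 of 26 on sequence 39 and 18 of 25 on sequence 43.

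Some sequences, with reaches from 29.6 to 180 kb, were open almost entirely in the libraries of 1 number or in 1 library. These were picked after their values were seen. Sequence 31, with a reach of 154 kb, had 7 peaks in brain 2 and 9 in fat body 2, but 1 in brain 1 and 0 in fat body 1. Sequence 32, with a reach of 180 kb, had 5 and 9 peaks in the libraries numbered 2, and 0 in brain 1 and 1 in fat body 1. Sequences 33, 37, 41, 51 and 85 held from 3 to 7 peaks in each library numbered 2 and 0 in both libraries numbered 1. The longest of them, sequence 33, reached 126 kb. In the opposite direction, sequence 72 had 3 peaks in brain 1 and 11 in fat body 1, and sequence 64 had 4 and 9, with 0 in both libraries numbered 2. Sequence 57 stood alone with 13 peaks in fat body 1 and 0 in the other lists.

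**Figure D3:**
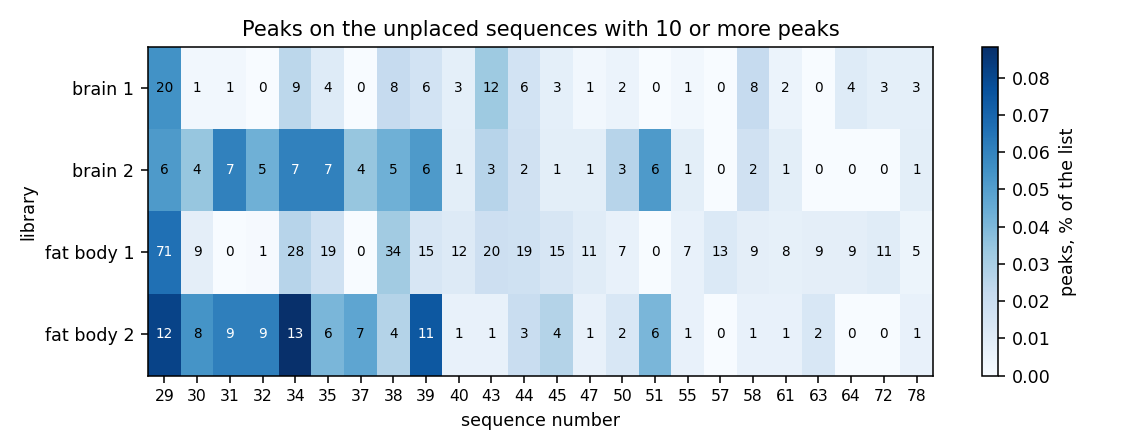
Peaks in each library (rows, printed counts) on the 24 unplaced sequences with at least 10 peaks over the 4 lists (columns), coloured by their percentage of the library's list. Sequences 31, 32, 37 and 51 are dark or mid blue in brain 2 and fat body 2 and near white in brain 1 and fat body 1, whereas sequences 64 and 72 hold peaks in the libraries numbered 1 only.

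Regions open in 1 tissue were as rare as the sequences. Of the 747 unplaced regions, 3 were in both brain lists and absent from fat body, or 0.402% (exact 95% interval 0.0829 to 1.17), where 0.502% of all 130309 regions were. In both fat body lists and absent from brain there were 4, or 0.535% (0.146 to 1.37), where the share over all regions was 1.54%. All 4 lists shared 4 unplaced regions, again 0.535%, against 0.825% of all regions. The class of brain 2 and fat body 2 alone exceeded its share over all regions, with 147 unplaced regions or 19.7% (16.9 to 22.7) on 88 sequences, against 3.59% of all regions and 3.50% of those on long sequences. Brain 1 and fat body 1 alone had 47 unplaced regions or 6.29% (4.66 to 8.28), against 11.4% of all regions. A single list held 511, or 68.4% (64.9 to 71.7), against 77.9% of all regions. These counts over regions have no test over libraries. They were not adjusted for the larger unplaced share of the lists numbered 2. Regions of fat body 1 alone made up 44.4% of unplaced and 62.1% of long regions, which moves the shares of all other classes.

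Peaks of the libraries numbered 2 were rarely found again in those numbered 1 on unplaced sequences. Of the 196 unplaced peaks of brain 2, 15 overlapped a peak of brain 1, or 7.65% (exact 95% interval 4.35 to 12.3), against 39.2% on long sequences. In the same way 28 of 283 unplaced peaks of fat body 2 overlapped a peak of fat body 1, or 9.89% (6.68 to 14.0), against 37.8% on long sequences. Across the tissues of number 2 the order was the opposite: 165 of 196 unplaced peaks of brain 2 overlapped fat body 2, or 84.2% (78.3 to 89.0), against 66.2% on long sequences. The gap was smaller the other way, where fat body 2 was found in brain 2 for 58.3% (52.3 to 64.1) of unplaced and 52.0% of long peaks. For the libraries numbered 1 the differences were smaller. Brain 1 was found in fat body 1 for 53.2% of unplaced and 52.6% of long peaks, in brain 2 for 12.1% and 12.2%, and in fat body 2 for 8.87% (4.51 to 15.3) and 5.69%. Fat body 1 was found in brain 1 for 17.4% and 20.4%, in brain 2 for 7.87% (5.51 to 10.8) and 5.54%, and in fat body 2 for 7.64% (5.32 to 10.6) and 5.59%. Shares of lists of unequal length are not compared with each other. The searched lists also differ in density. Those numbered 1 had fewer peaks per Mb of reach on unplaced than on long sequences (ratio 0.298 for brain 1, 0.354 for fat body 1). Those numbered 2 had more by this measure (ratio 1.51 for brain 2, 1.71 for fat body 2). The overlaps were not adjusted for density, so their contrasts are not separate from the difference in unplaced share between the lists.

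**Figure D4:**
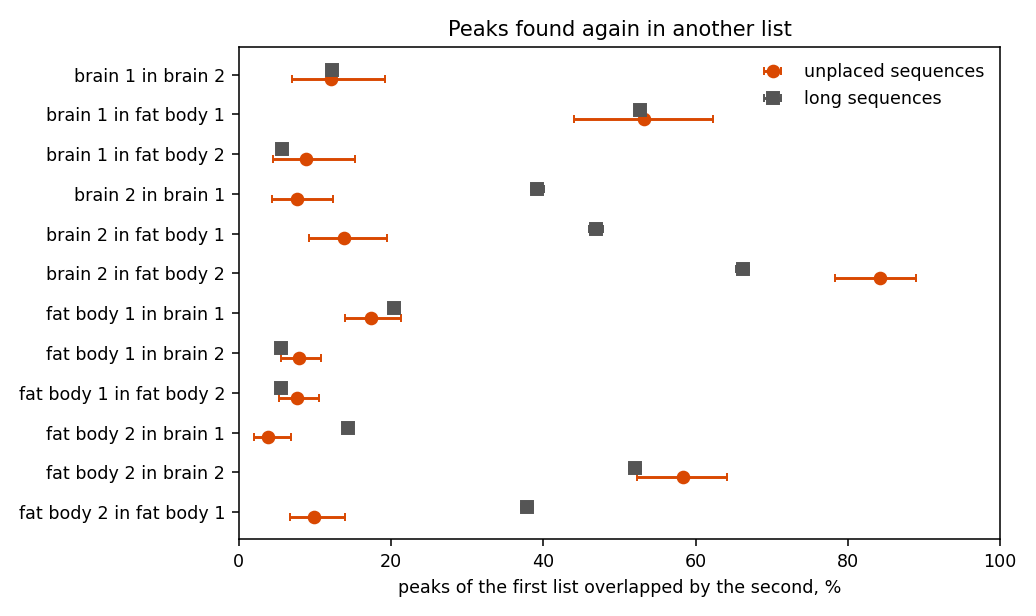
Percentage of the peaks of the first-named list overlapped by at least 1 bp by a peak of the second, for unplaced (orange circles) and long sequences (grey squares), with exact 95% binomial bars. Unplaced peaks of brain 2 and fat body 2 fall far to the left of the long ones when looked up in brain 1 or fat body 1, and brain 2 in fat body 2 lies to the right, at 84.2% against 66.2%. Percentages are not adjusted for the density of peaks in the second list.

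Summits matched most closely in the pair of number 2. In the 165 unplaced regions with 1 peak each in brain 2 and fat body 2, the median distance of the summits was 16 bp, and 78.8% were within 100 bp. In the 7481 such regions of long sequences the median was 85 bp, with 55.2% within 100 bp. Brain 1 and fat body 1 had medians of 32 bp in 55 unplaced and 40 bp in 16571 long regions. The tissue pairs were farther apart on unplaced sequences, with 136 bp in 16 regions for brain and 87 bp in 23 regions for fat body, against 73 and 74 bp on long sequences. These are few regions, and the distances were not tested.

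Unplaced peaks were slightly wider than peaks on long sequences in 3 of the 4 lists. Median widths were 457 against 425 bp in brain 1, 571 against 490 bp in brain 2 and 685 against 636 bp in fat body 2. In fat body 1 the order was the opposite, with 160 against 166 bp. The mean difference was 38.8 ± 36.2 bp (SD, n = 4 libraries), and an exact sign-flip permutation test over the libraries gave a two-sided p of 0.25, where 0.125 is the smallest possible. Without sequence 29 the difference in brain 1 turned from 32 to -9.5 bp. The widest unplaced peak had 2857 bp and was in brain 1, and the narrowest, of 94 bp, was in fat body 1.

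By rank within the list, unplaced and long peaks showed no stable order. Over the whole lists, unplaced peaks lay lower than long ones in both brain libraries and higher in both fat body libraries, but with lists of equal length brain 1 turned to a difference of 1.68 and fat body 1 to -9.38, with a −log10 q of at least 5 brain 2 turned to 5.77, and on sequences that reach 50 kb fat body 2 turned to -7.07 percentile points. Peaks were ranked by −log10 q, the authors' own value, and the median percentile was 42.4 in brain 1 and 47.8 in brain 2, and 60.9 in fat body 1 and 51.0 in fat body 2. Long peaks, nearly the whole of each list, stood in its middle, at 49.9 in fat body 1. The difference of unplaced and long medians averaged 0.505 ± 7.83 (SD, n = 4 libraries; exact sign-flip permutation test, two-sided p = 0.875). In the libraries numbered 2 the ranks were spread to both ends. The best 10% of the list held 21.9% of the unplaced peaks of brain 2 (exact 95% interval 16.4 to 28.4) and 20.1% of those of fat body 2 (15.6 to 25.3), while the weakest 10% held 14.8% (10.1 to 20.6) and 16.3% (12.2 to 21.1). Brain 1 had 7.26% (3.37 to 13.3) in the best 10% and 16.1% (10.1 to 23.8) in the weakest 10%. Fat body 1 had 10.4% (7.70 to 13.7) and 6.48% (4.35 to 9.23). In the best 1% of the list stood 11 unplaced peaks of brain 2 (5.61%) and 19 of fat body 2 (6.71%), each on a sequence of its own. There were 2 each of brain 1 (1.61%) and fat body 1 (0.463%). Of the long peaks, 0.892% to 1.00% stood there in the 4 lists.

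Fold enrichment over local background was higher on unplaced sequences in all 4 lists. The fold is the one the authors' peak caller gave for the summit, and its median in brain 1 was 6.01 on unplaced and 5.62 on long sequences. It was 7.87 against 5.38 in brain 2, 12.6 against 8.54 in fat body 2, and 5.59 against 4.00 in fat body 1. The log2 ratio of the medians averaged 0.42 ± 0.22 (SD, n = 4 libraries) and was above 0 in 4 of 4, with a two-sided p of 0.125 by the exact sign-flip permutation test, the smallest it can give. Ranked by this fold instead of by −log10 q, unplaced peaks had a median percentile of 54.8 in brain 1 and of 76.7 to 81.6 in the other lists. The fold is a ratio, and both of its parts were lower on unplaced sequences. The whole-read pile-up at the summit and its background were recovered from fold and p for all 1035 unplaced peaks. The median pile-up of brain 1 was 44.5 reads against 59 on long sequences, and that of fat body 1 was 29 against 35. It was 14 against 28 in brain 2, and 27 against 42 in fat body 2.

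Local background was lower on unplaced than on long sequences in all 4 lists. It is given in multiples of the lowest background of the list, its floor. The median was 4.76 times the floor on unplaced and 7.09 times on long sequences in brain 1, and 3.31 against 6.07 times in fat body 1. In the libraries numbered 2 it was 1.00 against 7.39 times in brain 2 and 1.83 against 7.87 times in fat body 2. The log2 ratio of the medians averaged -1.61 ± 1.08 (SD, n = 4 libraries), below 0 in 4 of 4, with a two-sided p of 0.125 by the exact sign-flip permutation test, again the smallest possible. More than 1.1 times the floor was found at 82.3% of the unplaced summits of brain 1 and 74.3% of those of fat body 1. In brain 2 this share was 44.9% and in fat body 2 it was 67.1%, while on long sequences it was 99.2% to 99.5%. On sequence 29 it was 83.3% to 100% in the 4 lists, and on sequences 300 to 692 it was 28.6% to 63.6%. On sequences 300 to 692 it was 40% of only 5 peaks in brain 1 and 38.9% of 36 peaks in brain 2. In both libraries numbered 2 the value was higher there than on sequences 100 to 299 (26.5% in brain 2 and 55.8% in fat body 2). Whether background bears on the gap between the numbered libraries was not tested.

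**Figure D5:**
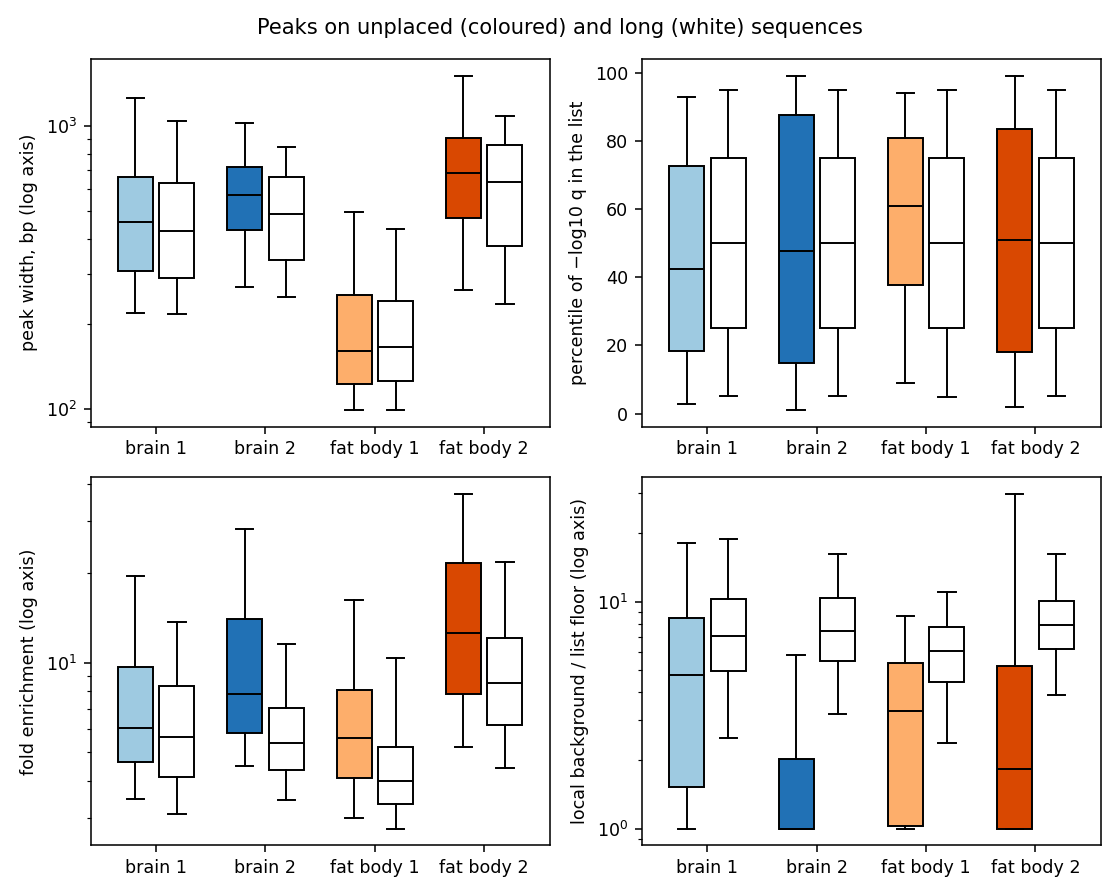
Width, percentile of −log10 q, fold enrichment and local background over the list's floor for unplaced (coloured) and long (white) peaks of each library, as medians with quartiles and whiskers from the 5th to the 95th percentile. Width and rank overlap broadly, fold is shifted up in the coloured boxes, and background is shifted down, to a median at the floor in brain 2.

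The strongest unplaced peaks were among the strongest of their whole lists. The peak of sequence 216 from 15469 to 16125 had the highest −log10 q of all 36420 peaks of brain 1, 925, with a 43.3-fold enrichment and a pile-up of 752 reads. It was also the strongest unplaced peak of fat body 1, with 69.1-fold enrichment and rank 290 in that list, and in brain 2 it had 29.7-fold enrichment and rank 115. Its summits lay at 15783, 15779 and 15778 in brain 1, brain 2 and fat body 1, within 5 bp. Fat body 2 had no peak on this sequence, which reached 16.1 kb. The strongest unplaced peak of brain 2, on sequence 35 from 38860 to 39428, had 34.3-fold enrichment and rank 23. In fat body 2 the same place had 39.2-fold enrichment and rank 44, with a summit 22 bp away, and neither library numbered 1 had a peak there although both had peaks elsewhere on the sequence, 4 in brain 1 and 19 in fat body 1. The strongest unplaced peak of fat body 2 lay on sequence 94 from 16653 to 18253 and was 1601 bp wide, with 44.8-fold enrichment, a pile-up of 940 reads and rank 27. It was the only peak of that sequence in any list.

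In the libraries numbered 2, strong unplaced peaks were mostly in regions shared with the other tissue, much as strong peaks on long sequences were. In the best 10% of the list they were rarely in regions of the libraries numbered 1. These shares were not adjusted for the lower density of peaks of the libraries numbered 1 on unplaced sequences. Of the 43 unplaced peaks in the best 10% of brain 2, 42 lay in a region also present in fat body 2, or 97.7%, against 88.5% of the best 10% on long sequences. Only 6 lay in a region of fat body 1, or 14.0% against 45.4%, and 1 in a region of brain 1, or 2.33% against 31.4%. For the 57 in the best 10% of fat body 2, 37 lay in regions of brain 2, or 64.9%, below the 73.4% on long sequences. Of the same 57, 5 lay in regions of fat body 1, or 8.77% against 41.5%, and 1 in a region of brain 1, or 1.75% against 18.1%. In the best 1% of brain 2 the order was the opposite. There 4 of 11 unplaced peaks lay in regions of fat body 1, or 36.4% against 33.3%, and 1 in a region of brain 1, or 9.09% against 2.86%. In the best 1% of fat body 2, 2 of 19 lay in regions of fat body 1, or 10.5% against 42.6%, and 0 in regions of brain 1, against 4.65%. All 9 unplaced peaks in the best 10% of brain 1 were in regions of fat body 1, against 89.0% on long sequences, 4 were in regions of brain 2, or 44.4% against 66.9%, and 0 were in regions of fat body 2, against 21.7%. For the 45 of fat body 1 each share lay somewhat below that on long sequences, at 46.7% against 54.6% for brain 1, 17.8% against 21.0% for brain 2 and 13.3% against 19.4% for fat body 2.

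The 4 unplaced regions open in all 4 libraries varied in strength. Their percentiles of −log10 q ran from 3.09, on sequence 162 in brain 1, to 90.4, on sequence 38 in fat body 1. The first, on sequence 38 from 50548 to 51298, had a 7.54-fold enrichment in brain 1 and 6.46-fold in fat body 1, and 4.42-fold and 6.70-fold in the libraries numbered 2. Its summits lay between 50899 and 51007. The second lay on the same sequence from 110364 to 111264, with 5.25-fold, 3.13-fold, 6.62-fold and 12.5-fold enrichment in the same order of libraries. Its summit stood at 110842 in both libraries numbered 1, and at 110674 and 110680 in those numbered 2. The third, on sequence 47 from 24643 to 25725, had 4.99-fold, 9.44-fold, 5.39-fold and 13.7-fold enrichment, with summits up to 765 bp apart. The fourth, on sequence 162 from 10476 to 11455, had 4.10-fold, 6.66-fold, 6.64-fold and 11.0-fold enrichment, with summits up to 716 bp apart.

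The 3 brain-only unplaced regions lay on sequences that also held fat body peaks elsewhere. On sequence 58 from 37647 to 38478 the enrichment was 8.32-fold in brain 1 and 6.56-fold in brain 2, with summits at 38053 and 37888. On sequence 43 from 37885 to 39286 it was 4.54-fold and 3.91-fold, with summits 82 bp apart. On sequence 34 from 117483 to 117930 it was 3.53-fold and 6.13-fold. Their percentiles of −log10 q ran from 10.2 to 74.7 in brain 1 and from 38.3 to 52.4 in brain 2.

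Of the fat-body-only regions, the one with the best mean percentile lay on sequence 70 from 16119 to 17584. Its enrichment was 7.97-fold in the first library of that tissue and 26.0-fold in the second. The fat body 1 peak was 127 bp wide and lay inside the 1466 bp of the fat body 2 peak, with summits at 16871 and 16909. The next pair lay on sequence 63, 1 from 33155 to 34251, where the folds were 5.84 and 16.6, and 1 from 11431 to 12658, where they were 4.33 and 26.6. In the latter the summits were 785 bp apart, at 12611 in fat body 1 and 11826 in fat body 2.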

How the data were processed

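The deposited data used here were 4 peak lists, 1 per ATAC-seq library. The tools named in the submitters' processing notes are MACS2 2.1.0, deepTools 3.3.0, Picard, Bowtie2 and Trim Galore. Settings and read counts are not given there. Per the peak names in the deposited lists, the cut was 1e-05, on p in brain 2 and fat body 1, on q in fat body 2 and unnamed in brain 1. The authors' lists give for each peak a fold enrichment at the summit, a −log10 p, a −log10 q, a summit offset and an integer score, which was not used. The lists were called per library, and these values describe and rank peaks within a list only.

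Peaks were ranked by −log10 q and merged over lists at 1 bp of overlap. Pile-up and background were solved from fold, as (pile-up + 1) / (background + 1), and from p, as the upper Poisson tail beyond the pile-up. Below a −log10 p of 250, exactly 1 whole pile-up from 2 to 1000 met both values within 2e-05 for each peak, and stronger peaks were solved by bisection. The scripts were tested on simulated data. Read counts are not given, so a missing peak does not show closed chromatin. The floor of the background was higher in both libraries numbered 1 than in those numbered 2, and whether this follows depth was not tested. Tests were exact permutations over libraries, and whether libraries of a tissue are separate animals is not stated, so their p-values may measure technical spread. Regions named are the best by mean percentile in a class and the strongest of each list, and sequences named are those with the most regions or, in both lists of 1 tissue alone, peaks, unless stated otherwise. Members, groups and tests were chosen with earlier results of these data known. Alternatives were a −log10 q of 5, lists of equal length, other overlaps, other ranks and leaving out libraries or sequences. Python 3.11.15, pandas 2.3.3, NumPy 2.4.6 and SciPy 1.17.1 were used.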

Additional observations from a re-analysis of the deposited data

Results flagged for a closer look

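The rank of unplaced peaks against long ones moved in opposite directions in the tissues. The median percentile of −log10 q on unplaced sequences differed from that on long sequences by -7.67 in brain 1 and -2.24 in brain 2, and by 10.97 and 0.956 in the fat body libraries numbered 1 and 2. The mean of fat body minus that of brain was 10.9 percentile points, and the difference between the tissues was not tested. With the 11572 best peaks of each list the 4 differences were 1.68, -2.24, -9.38 and 12.6 in this order, so the opposite directions were not present with lists of equal length. Brain 2 turned to 5.77 with peaks under a −log10 q of 5 removed. Fat body 2 turned to -7.07 on unplaced sequences that reach 50 kb.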

How the results depend on the processing

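A missing peak may reflect depth, and with 2 libraries per tissue no test could pass 0.05. Local background stayed lower on unplaced sequences in every setting run, at a log2 ratio from -1.95 to -1.18 with a library left out and from -1.76 to -1.24 otherwise, and the width difference stayed above 0, from 24.8 to 53.8 bp with a library left out. The difference in rank was 0.505 and reversed to -0.92 on the 28 unplaced sequences that reach 50 kb, an alternative added after the data were seen; the cause was not tested. It ranged from -2.98 to 3.23 with a library left out and was 23.3 when ranked by fold. The fat body minus brain share ranged from -0.614 to 0.901 percentage points with a library left out. As a replicate block, the share compared within library numbers gave the same 0.144 with p = 0.5 (exact sign-flip over the numbers, the smallest possible). Libraries of the same number deviated together over the 180 unplaced sequences (Pearson's r 0.814), but the labels do not say that a number marks a shared origin and there are only 2 pairs. Lists of equal length gave 1 fat-body-only sequence against 2 and 2 fat-body-only regions against 4, with shorter lists by construction. Calling a tissue from 1 library gave 3 and 6 brain-only and 22 and 36 fat-body-only sequences, and 21 and 57 brain-only and 111 and 337 fat-body-only regions. Leaving out a library of the other tissue gave 3 and 4 brain-only and 4 and 15 fat-body-only sequences, and 3 and 12 brain-only and 10 and 18 fat-body-only regions. An omitted library neither has to hold a region nor excludes it.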
